A study of Mus musculus with 9 samples.

Results

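The regions described here are stretches of open chromatin that lie between genes, close to one, and that were found in every library of the study. Peaks of all 9 libraries that overlapped by at least 1 bp were merged, and a merged region was kept where it held a peak from all 9 libraries (a constant region) and its midpoint lay outside every protein-coding gene, more than 1 kb and at most 100 kb from the nearest one. This gave 6953 members of 26020 constant regions and 116362 merged regions in all. The peaks come from ATAC-seq, in which the Tn5 transposase cuts open DNA and leaves sequencing adapters there, in mouse embryonic stem cells, line E14, whose variant the labels call TOT2N. There were 3 libraries from cells with a stably integrated TetR-MYBTA construct, 3 from cells with a stably integrated TetR construct, and 3 from wild-type (WT) cells. TetR is the tetracycline repressor, a bacterial protein that binds tet operator DNA, MYB is a transcription factor known from blood progenitor cells, and the series title concerns enhancers activated under MYB activity. The labels do not say whether a line is 1 clone, what drives the constructs, or whether separate cultures gave the libraries of a line, so a p-value here sets differences against library-to-library spread that may be technical.

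Enhancers are stretches of DNA that raise transcription of a gene from a distance. Bound transcription factors keep them free of nucleosomes, which is why they appear as ATAC-seq peaks away from gene starts. In mouse embryonic stem cells, enhancers of this kind around Pou5f1, Sox2, Nanog and their partners hold the pluripotent state. A peak between protein-coding genes can also be the start of a long non-coding RNA (lncRNA) or a microRNA gene, or a site bound by the insulator protein CTCF, and peak lists do not separate these.

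The deposited lists give no tag count per peak and the same score for every peak, so the measure used here is a peak's place. It is the position of a region's peak in the list of a library, ranked among the 26020 constant regions only and written as a percentile, with 100 for the first. A higher place in one line therefore means earlier in its lists relative to the other constant regions, and is no measure of absolute accessibility. The libraries held 16.4 M to 23.0 M tags, of which 5.48% to 9.78% lay in peaks, and the lists held 45136 to 70230 peaks. TetR-MYBTA replicate 3 had the shortest list and the smallest share. Across members, places correlated within a line with a mean Pearson r of 0.852 among TetR-MYBTA libraries, 0.901 among TetR libraries and 0.894 among WT libraries. Between lines the mean r was 0.661 for TetR-MYBTA and TetR, 0.699 for TetR-MYBTA and WT, and 0.763 for TetR and WT. Of 8 stem cell marker genes, 3 (Sox2, Klf4 and Dppa5a) had a peak within 1 kb of a gene end in all 9 libraries and 3 (Pou5f1, Esrrb and Zfp42) in none. Nanog had one in 4 libraries and Tdgf1 in 2. Among 6 blood markers 4 had one in all 9, so peaks at gene ends did not set the labelled cell type apart from blood. For the other types checked, 0 of 5 fibroblast, 1 of 4 neural and 0 of 3 endoderm markers had one in all 9.

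The sequences that can be shown are those of lncRNA start windows and microRNAs that members overlap, not those of the members themselves. There were 207 members that overlapped the start window of an lncRNA, 250 bases before to 50 after the annotated start, and these touched 209 lncRNA genes. Of these, the windows of 6 with a named transcript are shown as examples, from RefSeq on GRCm38.p6 (mm10 coordinates), 5′ to 3′ on the strand of the lncRNA. Of the 300 bp of the window the member covers 181 at Snhg8, 60 at Chaserr and 292 at Mir22hg. It covers 267 at Dancr, 266 at Platr22 and 205 at Platr10, so parts of each window, and motifs marked in them, can lie outside the member. Capitals mark the GC box GGGCGG, the ETS core CCGGAAG, the CCAAT box CCAAT and the CRE core TGACGT on either strand.
Snhg8, chr3:123508287-123508586, strand minus: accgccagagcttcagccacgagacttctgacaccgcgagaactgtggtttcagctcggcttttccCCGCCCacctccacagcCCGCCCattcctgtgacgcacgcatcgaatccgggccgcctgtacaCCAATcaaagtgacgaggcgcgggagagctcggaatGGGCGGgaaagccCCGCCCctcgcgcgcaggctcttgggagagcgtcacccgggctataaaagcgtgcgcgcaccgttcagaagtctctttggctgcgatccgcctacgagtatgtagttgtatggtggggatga
Chaserr, chr7:73558346-73558645, strand minus: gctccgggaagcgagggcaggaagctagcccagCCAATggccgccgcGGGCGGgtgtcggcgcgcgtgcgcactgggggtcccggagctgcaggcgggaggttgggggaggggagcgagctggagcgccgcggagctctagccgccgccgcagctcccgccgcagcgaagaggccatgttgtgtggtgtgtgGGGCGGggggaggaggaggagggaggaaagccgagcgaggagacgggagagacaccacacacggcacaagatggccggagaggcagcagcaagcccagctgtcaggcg
Mir22hg, chr11:75461289-75461588, strand plus: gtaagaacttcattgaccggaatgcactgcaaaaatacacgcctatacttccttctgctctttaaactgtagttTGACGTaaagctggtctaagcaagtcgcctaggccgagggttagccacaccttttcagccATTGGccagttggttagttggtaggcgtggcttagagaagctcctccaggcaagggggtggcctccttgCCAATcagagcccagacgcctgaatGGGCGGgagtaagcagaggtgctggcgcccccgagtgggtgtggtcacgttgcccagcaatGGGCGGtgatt
Dancr, chr5:74092810-74093109, strand plus: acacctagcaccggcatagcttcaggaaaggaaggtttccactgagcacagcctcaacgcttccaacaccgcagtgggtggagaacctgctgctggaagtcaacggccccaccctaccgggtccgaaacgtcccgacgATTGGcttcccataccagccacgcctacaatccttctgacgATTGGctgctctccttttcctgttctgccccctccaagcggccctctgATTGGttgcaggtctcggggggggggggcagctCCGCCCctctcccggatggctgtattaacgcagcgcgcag
Platr22, chr1:136695961-136696260, strand plus: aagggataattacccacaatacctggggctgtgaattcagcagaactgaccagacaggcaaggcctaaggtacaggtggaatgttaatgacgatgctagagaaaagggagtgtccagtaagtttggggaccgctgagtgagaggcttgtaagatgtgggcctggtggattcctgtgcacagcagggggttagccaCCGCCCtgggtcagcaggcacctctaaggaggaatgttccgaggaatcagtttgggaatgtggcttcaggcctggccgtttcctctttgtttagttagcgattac
Platr10, chr3:75655682-75655981, strand minus: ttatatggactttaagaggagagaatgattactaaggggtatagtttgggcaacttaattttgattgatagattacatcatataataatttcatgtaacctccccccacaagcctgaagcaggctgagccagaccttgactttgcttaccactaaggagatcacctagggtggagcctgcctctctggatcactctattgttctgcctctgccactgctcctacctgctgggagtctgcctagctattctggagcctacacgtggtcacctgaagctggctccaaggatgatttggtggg

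Snhg8 and Dancr are host genes of small nucleolar RNAs, Chaserr restrains its neighbour Chd2 in mouse, Mir22hg is the host of miR-22, and Platr22 and Platr10 were named as pluripotency-associated transcripts. The Snhg8 window has 62.0% G and C, 30 CpG and 4 GC boxes, and the Chaserr window has 72.3% G and C, 30 CpG and 2 GC boxes. By contrast the Platr10 window has 47.0% G and C, 1 CpG and none of the 4 motifs. The examples thus span CpG-rich and CpG-poor starts. Over the 219 windows (some genes have more than 1 start) the median was 53.3% G and C and 9 CpG, against 48.3% and 4 over all 11588 lncRNA windows and 56.3% and 13 over 21263 protein-coding windows. A GC box was present in 42.0% of the windows of members, in 16.3% of all lncRNA windows and in 35.7% of all 32851 windows. An ETS core was present in 10.5% of them, in 3.89% of lncRNA windows and in 8.86% of all. For the CCAAT box the shares were 42.5%, 36.0% and 37.4%, and for the CRE core 9.59%, 5.71% and 7.51%. A TATA box (TATAAA) was rarer, in 7.31% of the windows of members against 15.5% of lncRNA windows and 13.6% of all. AACNG, the core that MYB binds, was found in 80.4%, 82.5% and 80.3%. A match is a run of letters in the window, which a member may cover only in part, and not a bound site.

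Members at lncRNA starts ranked above the other members in every library. Their median place was 53.0, 53.5 and 54.2 in the TetR-MYBTA libraries, 54.4, 55.5 and 55.3 in the TetR libraries and 57.1, 57.1 and 58.2 in the WT libraries. For the 6746 other members it was 45.1, 45.5 and 44.9 in TetR-MYBTA, 42.0, 42.2 and 42.5 in TetR and 41.4, 40.9 and 40.4 in WT. The order of the lines is thus opposite in these 2 sets of members, a difference that was not tested. The Snhg8 member, 1.93 kb from Prss12, held places of 98.3, 98.9 and 98.7 in TetR-MYBTA, 98.4, 98.9 and 98.9 in TetR and 98.7, 99.2 and 98.4 in WT. Its lines overlap fully. At Mir22hg the member, 6.55 kb from Tlcd2, had 96.8, 93.6 and 96.2 in TetR-MYBTA and 84.8, 86.1 and 84.9 in TetR, with 96.0, 96.4 and 90.9 in WT. TetR thus stands below the other lines at Mir22hg, and the difference of TetR-MYBTA minus TetR was 10.2 places (SE 1.64, limma adjusted p = 0.000491). This member lies on chromosome 11 beyond 44 Mb, where 90 of 270 members were called higher and 2 lower in that comparison. The median difference of members there was 14 places. Chaserr, 17.0 kb from Chd2, had 96.8, 97.9 and 95.1 in TetR-MYBTA against 99.6, 99.5 and 99.7 in WT, and fell by 3.03 places (SE 0.926, adjusted p = 0.0256). The calls at Mir22hg and Chaserr were not tried under other settings of the fit. At Platr22 the member lay 65.8 kb from Zfp281 and had 96.9, 97.4 and 97.6 in TetR-MYBTA against 94.0, 92.5 and 91.0 in TetR and 93.1, 94.0 and 91.5 in WT. Every TetR-MYBTA library was above all others there, by 4.81 places over TetR (SE 1.20, adjusted p = 0.00851) and 4.38 over WT (adjusted p = 0.0147). This member is among those on chromosome 1 beyond 88 Mb, many of which were called higher in TetR-MYBTA. With no variance trend in limma both calls were lost, at adjusted p = 0.2101 against TetR and 0.2334 against WT, and without WT replicate 3 the call against WT was lost as well. The Dancr member was called in no comparison.

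Only 5 members overlapped a microRNA hairpin, 6 hairpins in all, of 1005 hairpins in the RefSeq table. Of their 10 mature microRNAs 4 are shown, with the seed (bases 2 to 8) in capitals, because 2 of them share a seed.
mmu-let-7i-5p: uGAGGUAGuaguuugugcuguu
mmu-miR-132-3p: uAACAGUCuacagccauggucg
mmu-miR-212-3p: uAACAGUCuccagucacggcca
mmu-miR-7229-5p: uAGUAGACaucccuggauagc

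miR-132 and miR-212 lie in 1 member on chromosome 11, 2.34 kb from Ovca2, and their 3p arms carry the same seed, AACAGUC. let-7i belongs to the let-7 family, which is held down in stem cells by Lin28. The let-7i member, 6.35 kb from Mon2, had places of 37.5, 33.4 and 64.6 in TetR-MYBTA, 39.5, 41.0 and 35.0 in TetR and 26.3, 37.8 and 50.1 in WT, and the lines overlap. The miR-132 and miR-212 member had 75.4, 57.8 and 80.0 in TetR-MYBTA, 58.6, 70.5 and 67.3 in TetR and 73.3, 52.7 and 58.1 in WT, which overlap as well. The only hairpin member called was that of miR-7229, 13.7 kb from Sgsm1, with 34.2, 7.05 and 23.4 in TetR against 66.8, 39.0 and 50.4 in WT, a fall by 30.5 places (SE 9.61, adjusted p = 0.0400).

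Gene-near regions were found in all 9 libraries about as often at every distance. Of 34629 gene-near regions in 1 or more libraries 20.1% were constant, against 42.4% of regions at a gene end (within 1 kb), 17.8% inside a gene and 17.9% in gene deserts (over 100 kb). By distance the constant share was 19.3% at 1 to 5 kb, 19.97% at 5 to 10 kb, 20.5% at 10 to 25 kb, 20.4% at 25 to 50 kb and 19.96% at 50 to 100 kb. The median distance to the nearest gene was 18.8 kb for members and 18.7 kb for gene-near regions in 1 to 8 libraries. Strand was known for the nearest gene of 5415 members, and 52.8% of these lay upstream, the same share as among gene-near regions in 1 to 8 libraries. By distance and side, constant regions and those found in fewer libraries thus had close values. Members nearest to the limits were 1002 bp from Bcr and 1004 bp from Coa7 inside the near limit, with regions 999 bp from Scgb1a1 and 994 bp from Arhgap21 just outside it. At the far limit they were 99874 bp from Pglyrp4 and 99865 bp from Btg1, with 100033 bp from Sema6d and 100058 bp from Ctnnd2 just outside.

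Members held the middle of the lists, and held a higher place in the TetR-MYBTA libraries. Their median place was 45.3, 45.8 and 45.1 in TetR-MYBTA, 42.3, 42.5 and 42.9 in TetR and 41.8, 41.2 and 40.9 in WT. No TetR-MYBTA library overlaps another line, and the mean of 45.4 ± 0.395 (SD, n = 3) in TetR-MYBTA was 3.44 above the 41.9 ± 0.774 (SD, n = 6) of the other libraries, with a two-sided exact permutation p = 0.0119, the smallest this design allows. Adjusted over the 5 library measures of this comparison the permutation p was 0.0198, and over all 20 tests of library measures 0.0794, so the difference does not pass once the 15 comparisons of 3 with 3 libraries, which cannot go below p = 0.1, are counted in. With the place in the whole list of each library instead of the place among constant regions, the sign turned, to -1.97 (exact p = 0.476). The measure is therefore relative: members moved up against the other constant regions, not against all peaks. Regions at gene ends stood lower in TetR-MYBTA, with a median place of 62.5 ± 0.949 in TetR-MYBTA libraries, 64.6 ± 0.467 in TetR libraries and 69.6 ± 0.696 in WT libraries, while gene deserts stood at 52.8 ± 1.20, 39.9 ± 0.833 and 36.7 ± 0.118 (SD, n = 3 each).

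The higher place in TetR-MYBTA was found in the members far from genes. At 1 to 5 kb the median place was 46.9, 47.7 and 47.1 in TetR-MYBTA, 45.5, 46.9 and 47.3 in TetR and 46.9, 45.9 and 48.2 in WT, and the lines overlap. At 50 to 100 kb it was 46.7, 47.1 and 46.6 in TetR-MYBTA, 41.3, 40.3 and 41.4 in TetR and 40.2, 38.4 and 37.4 in WT, with no overlap between the lines. The difference of far minus close members was -0.434 ± 0.150 in TetR-MYBTA (SD, n = 3) and -6.93 ± 2.17 in the other libraries (SD, n = 6), a gap of 6.50 places with a two-sided exact permutation p = 0.0119 (0.0198 over 5 measures, 0.0794 over 20 tests). Members far from genes thus ranked level with close ones in TetR-MYBTA and below them in TetR (-5.56 ± 1.21) and WT (-8.31 ± 2.15; SD, n = 3 each). This measure was added after the values by distance had been seen. It kept its direction with the place in the whole list, at 4.04 (exact p = 0.0119), and without chromosomes 1, 11, X and Y, the other regions ranked again, at 7.01 (exact p = 0.0119). The plot of median place by distance shows the same values for every library.

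**Figure D1:**
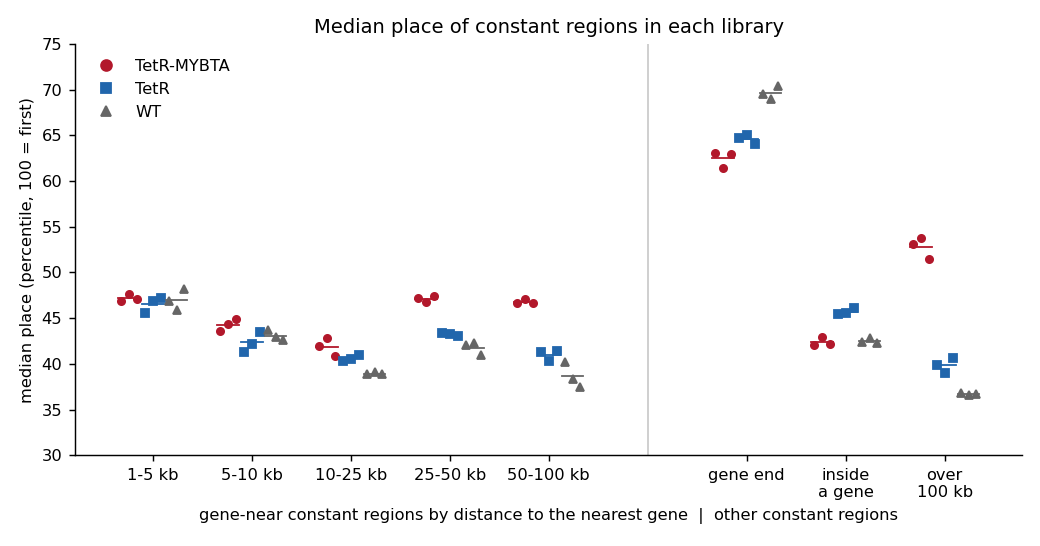
Median place of constant regions in each library (y axis, percentile among the 26020 constant regions), for members by distance to the nearest gene and, right of the line, for the other constant regions. Each point is 1 library and each short line the mean of 3; the lines overlap at 1 to 5 kb, and the TetR-MYBTA libraries stand apart at 25 to 50 kb and beyond.

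Between TetR-MYBTA and TetR, 1085 members were called higher and 886 lower in TetR-MYBTA, which is 15.6% and 12.7% of members. Over all constant regions 13.4% were called higher and 12.4% lower (limma with Benjamini-Hochberg adjustment over 26020 regions, adjusted p under 0.05), so members lay a little above the background in the higher direction and near it in the lower one. The median difference was 0.516 places over members and -0.512 over all constant regions. With the place in the whole list the split turned, to 558 higher and 1049 lower. By distance, 13.4% of members at 1 to 5 kb and 18.5% of those at 50 to 100 kb were called higher, against 12.9% and 12.4% called lower.

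Between TetR-MYBTA and WT, 1163 members were called higher and 746 lower in TetR-MYBTA, or 16.7% and 10.7%. The background was 13.7% higher and 14.1% lower, and the median difference was 1.91 places over members and -0.467 over all. At 50 to 100 kb from a gene 309 members (21.98%) were called higher and 122 (8.68%) lower, while at 1 to 5 kb 138 were higher and 145 lower, of 1104. Here too the whole-list place turned the split, to 602 higher and 804 lower. In gene deserts 32.6% of constant regions were called higher, and at gene ends 5.07%, so gene-near members lie between these classes.

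Between TetR and WT, 669 members were called higher and 559 lower in TetR, or 9.62% and 8.04%, against a background of 8.51% and 9.24%. Without any 1 of the TetR or WT libraries, TetR replicate 1, 2 or 3 or WT replicate 1, 2 or 3, the calls came to 757 to 798 in place of 1228, and with the whole-list place to 574. The 3 comparisons share libraries, so their counts are not independent of each other.

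Chromosomes took very unequal parts in these calls. The shares over all constant regions were 13.4% higher and 12.4% lower in TetR-MYBTA against TetR, and 13.7% and 14.1% against WT. In TetR against WT they were 8.51% and 9.24%. The counts by chromosome were made for members only, so they do not show how other constant regions of the same chromosomes behaved. On chromosome 1 from 88 Mb onward 173 of 454 members were called higher and 15 lower in TetR-MYBTA against TetR, and 187 higher and 1 lower against WT. On chromosome 11 below 44 Mb 82 of 148 members were called higher and 1 lower against TetR, with the same counts against WT. The rest of chromosome 11 also leaned that way, with 90 of 270 members higher and 2 lower against TetR and 66 higher and 5 lower against WT. Of the members called in the stretches of chromosomes 1 and 11, nearly all were thus higher in TetR-MYBTA; in the chromosome 1 stretch most members were not called. In the chromosome 1 stretch the median place was 57.5 ± 2.22 in TetR-MYBTA libraries, 36.7 ± 0.996 in TetR libraries and 34.5 ± 0.776 in WT libraries, and in that of chromosome 11 it was 69.4 ± 1.26, 38.3 ± 2.36 and 37.6 ± 1.99 (SD, n = 3 each). Chromosome X set TetR apart: of 222 members 67 were called lower and 10 higher in TetR-MYBTA against TetR, and 69 higher and 4 lower in TetR against WT. On chromosome 6 from 68 to 84 Mb 10 of 14 members were called lower in TetR-MYBTA against TetR and none higher, and 8 higher and none lower in TetR against WT. On chromosome 19 3 of 106 members (2.83%) were called higher and 19 (17.9%) lower in TetR-MYBTA against WT. The share called lower there is not far from that over all constant regions. The stretches had been chosen from earlier results of these lists, so these counts are a description. The part of chromosome dosage in them was not tested.

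Outside chromosomes 1, 11, X and Y, the median place of the 5651 members depended on the regions they were ranked among. On the places among all 26020 constant regions it was 43.41, 43.39 and 42.81 in TetR-MYBTA, 42.9, 43.06 and 43.73 in TetR and 42.7, 42.81 and 41.85 in WT. The lines overlap there, and the TetR-MYBTA mean of 43.2 was level with the TetR mean of 43.23, while the WT mean was 42.46. With the regions outside these chromosomes ranked again among themselves, the median place was 45.4 in TetR-MYBTA and 41.9 in the other 6 libraries, a gap of 3.53 (exact p = 0.0119). In that second ranking 771 members were called higher and 584 lower in TetR-MYBTA against TetR. These 1355 of 5651 members are a somewhat larger share than the 20.2% of all regions ranked that were called in either direction. Against WT 902 were called higher and 534 lower, where 24.8% of all regions ranked were called. In this comparison with WT the share of members called lay near that background.

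**Figure D2:**
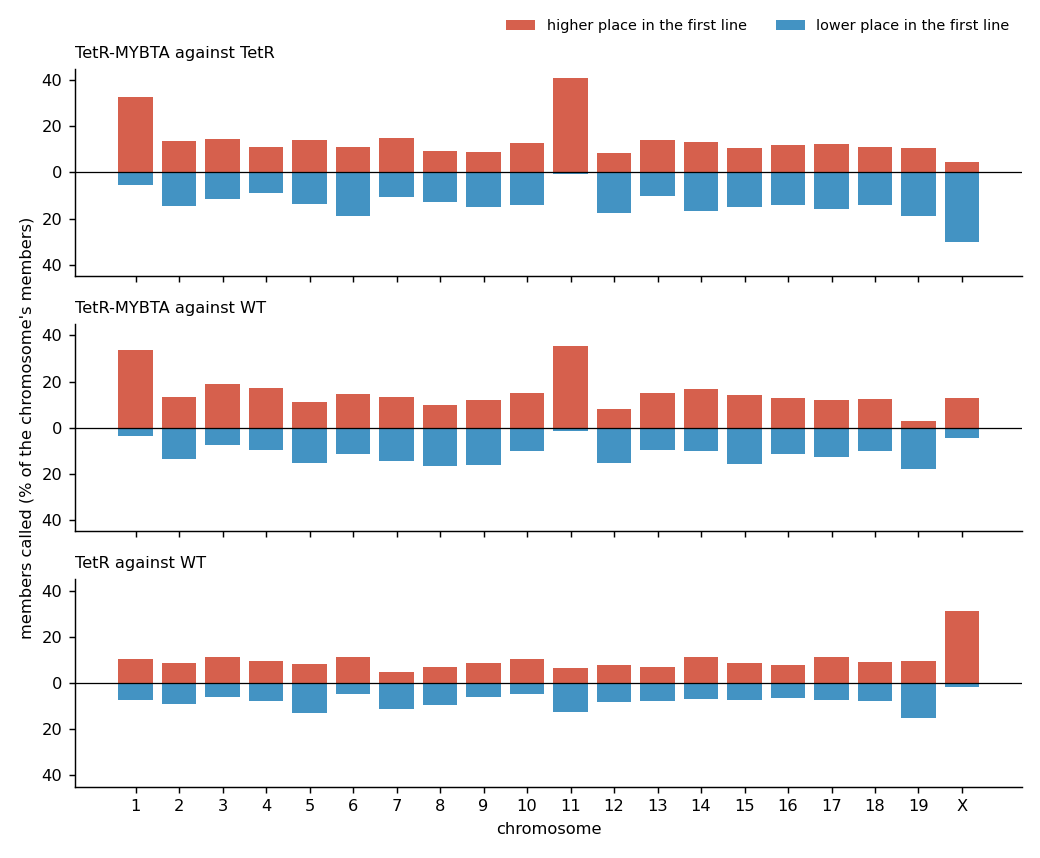
Share of members called on each chromosome (y axis, percent of the members of that chromosome), higher in the line named first above 0 and lower below 0, for the 3 comparisons. Chromosomes 1 and 11 stand out upward in both TetR-MYBTA comparisons, at 32.6% and 41.2% against TetR, and X stands out for TetR, at 31.1% higher than WT; Y, with 2 members, is not drawn.

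The members with the largest called differences between TetR-MYBTA and TetR moved across most of the scale. A member 85.5 kb upstream of Usp38, a gene for a ubiquitin protease, had places of 86.8, 84.02 and 94.5 in TetR-MYBTA against 0.442, 1.21 and 8.46 in TetR, with 71.5, 75.2 and 69.4 in WT. TetR was the line that stood apart there. The difference of TetR-MYBTA minus TetR was 85.0 (SE 7.3, limma adjusted p = 1.7e-05) and that of TetR minus WT -68.7. A member 21.6 kb from Fbxo15, an F-box gene expressed in stem cells, behaved alike, with 91.9, 90.9 and 89.7 in TetR-MYBTA against 9.72, 14.1 and 2.62 in TetR and 86.5, 76.0 and 86.7 in WT. Members near Crisp4, Upp1 and Macir had differences of TetR-MYBTA minus TetR of 79.7, 78.8 and 78.3, and all 3 of these lie on chromosome 1 or 11.

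Of the 6 members that fell most in TetR-MYBTA against TetR, 5 lie on X. A member 34.4 kb downstream of Lpar4, a lysophosphatidic acid receptor, had 3.31, 7.83 and 8.98 in TetR-MYBTA against 88.4, 95.0 and 92.0 in TetR, and 36.3, 33.7 and 19.5 in WT. It fell by 85.1 (SE 7.7, adjusted p = 1.8e-05). A second member 17.9 kb from Lpar4 fell by 78.3, so the pair moved together. Map7d2, for a microtubule-binding protein, had a member that fell by 79.2, and Msl3, for a subunit of a histone acetyltransferase complex, had one with 16.1, 27.2 and 26.9 in TetR-MYBTA against 95.6, 96.5 and 94.7 in TetR and 27.2, 18.2 and 22.2 in WT. Magt1 had a member at 19.4, 27.2 and 18.1 in TetR-MYBTA against 88.2, 87.3 and 91.0 in TetR. At Msl3 and Magt1 the TetR libraries were the ones far from WT. The sixth, 16.0 kb from Niban1 on chromosome 1, had 12.7, 2.79 and 8.89 in TetR-MYBTA against 80.5, 81.8 and 85.4 in TetR and 3.17, 11.8 and 12.8 in WT, inside the stretch where most called members rose.

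Between TetR-MYBTA and WT the largest rises were in members where TetR was also low or between. Near Serpinb11, a serine protease inhibitor family gene, the places were 73.9, 77.8 and 89.5 in TetR-MYBTA against 7.78, 6.01 and 16.8 in WT, with 6.81, 19.4 and 11.7 in TetR. This is a rise of 70.2 (SE 7.5, adjusted p = 0.00014) in which TetR and WT overlap. A member 37.8 kb upstream of Pak7, for a neuronal kinase, had 75.6, 74.8 and 57.0 in TetR-MYBTA against 5.18, 4.27 and 3.29 in WT and 8.49, 5.42 and 11.5 in TetR. A member 50.2 kb upstream of Etv1, an ETS factor gene, had 82.0, 81.8 and 85.2 in TetR-MYBTA against 14.1, 25.1 and 13.3 in WT. Pak7 and Etv1 lie on chromosomes 2 and 12, away from the stretches. The other 3, near Zfp735, Vps4b and Hmcn1, rose by 69.8, 68.4 and 68.2.

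The 6 largest falls against WT lay on different autosomes. Near Mmp7, a matrix protease gene, the member had 10.4, 0.757 and 3.99 in TetR-MYBTA against 77.3, 69.2 and 81.6 in WT, and 1.83, 3.40 and 5.15 in TetR. Both construct lines were low there, and TetR fell by 72.6 against WT (SE 6.7, adjusted p = 4.7e-05). Near Bcl2l11, for the pro-apoptotic protein BIM, the member had 20.8, 10.7 and 13.3 in TetR-MYBTA against 78.0, 84.2 and 78.6 in WT, with 22.8, 36.7 and 19.0 in TetR. Esyt2 showed the same order, with a fall by 67.4. The member near Wdr7 differed, since it had 33.7, 50.01 and 6.94 in TetR-MYBTA against 89.4, 87.1 and 89.9 in WT and 87.8, 84.6 and 90.3 in TetR, so that TetR-MYBTA alone stood low. Those near Gm42134 and Atl2 fell by 70.4 and 62.0.

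Between TetR and WT, 5 of the 6 largest rises were on X (near Magt1, Msl3, Map7d2, Tlr13 and Pgk1, by 65.3 to 79.5), and the largest falls were near Fbxo15, Mmp7, Usp38 with a pair of members, Lmtk2 and Tnfrsf19. The second Usp38 member, 26.0 kb upstream, had 0.446, 25.6 and 13.8 in TetR against 85.2, 83.5 and 82.0 in WT, with 87.3, 83.6 and 56.5 in TetR-MYBTA. At Tnfrsf19, a receptor of the tumour necrosis factor family, TetR had 5.36, 7.57 and 10.6 against 75.5, 63.4 and 74.7 in WT, with TetR-MYBTA between them at 51.6, 31.3 and 38.1.

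**Figure D3:**
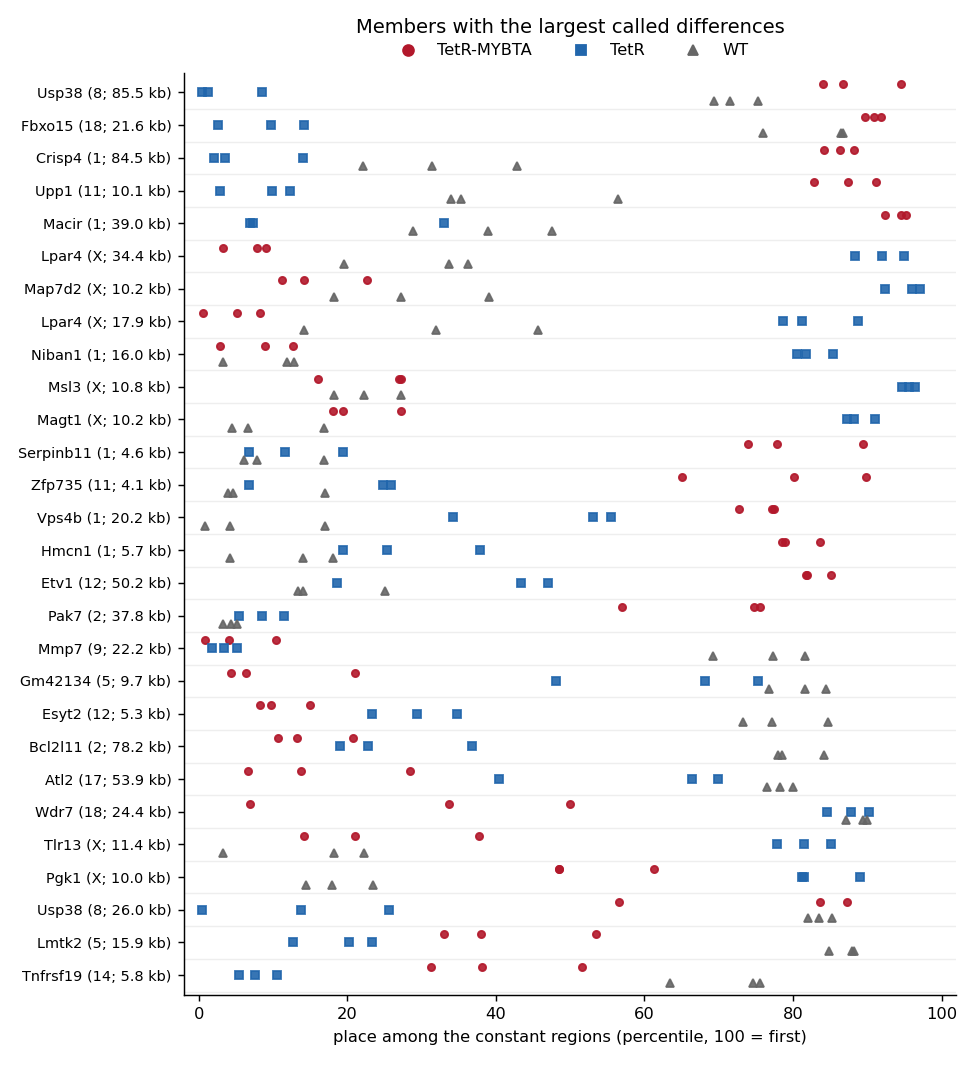
Place of the members with the largest called differences between any 2 lines, 1 row per member with the nearest gene, its chromosome and the distance; each point is 1 library. In the rows of Usp38 and Fbxo15 the TetR libraries lie below 26 and the other lines above 56, and in the X rows the TetR libraries lie above 77.

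The 10 members with the highest mean place were near the first rows in every library. That 86.5 kb from Gm28710 had 99.4, 99.7 and 99.5 in TetR-MYBTA, 99.9, 99.8 and 99.9 in TetR and 99.9, 99.9 and 99.9 in WT. The others were near Tmprss11a, H2az1 (for the histone variant H2A.Z), Tmem161b, Rab3c, Cdc73, Zfp958, Slc2a3 (the glucose transporter GLUT3), Lilr4b and Brinp3, with mean places of 99.4 to 99.7, and none of the 10 was called. Of the 10 highest members at a lncRNA gene, only that at Panct2, 2.63 kb from Slco4c1, was called, with 99.9, 99.5 and 99.6 in TetR-MYBTA against 97.8, 95.1 and 96.0 in WT (a rise of 3.35, SE 0.86, adjusted p = 0.011). Panct2 was named as a pluripotency-associated transcript, and 99.3, 99.2 and 99.3 in TetR put that line above WT as well, by 2.93 places (adjusted p = 0.030). This member also lies on chromosome 1 beyond 88 Mb. The call of TetR against WT was lost under 7 of 16 alternatives, with limma adjusted p up to 0.462. That of TetR-MYBTA against WT was lost under 1 of 16, with adjusted p = 0.344.

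Members lay near most genes of pluripotency. All 3 core genes (8 members) and 20 of 28 naive genes (58 members) were nearest to at least 1 member, against 4459 of 21900 protein-coding genes (20.4%). This was not particular to pluripotency. The share was 71.4% for naive genes, 71.4% for trophoblast genes and 64.3% for signalling genes, and 25% to 53.3% in the other lists used here. The median of the mean places was 60.7 for core and 61.5 for naive genes, against 41.1 for all members. For Pou5f1, which encodes OCT4, the member lay 2.01 kb upstream, on the side of its known distal enhancer, and had 68.5, 82.2 and 69.2 in TetR-MYBTA, 54.9, 56.4 and 66.4 in TetR and 77.1, 83.3 and 83.9 in WT. TetR fell by 22.2 against WT there (SE 5.4, adjusted p = 0.013). For Nanog the highest member, 4.80 kb upstream, had 93.1, 98.3 and 98.0 in TetR-MYBTA, 98.5, 94.8 and 97.5 in TetR and 98.1, 98.8 and 97.8 in WT, and was not called. The highest of 4 Sox2 members, 92.9 kb downstream, had 82.2, 82.9 and 78.5 in TetR-MYBTA against 56.5, 68.8 and 70.7 in WT, a rise of 15.9 (SE 4.8, adjusted p = 0.025), with 71.5, 68.7 and 69.8 in TetR.

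Among naive genes the calls ran both ways. Of 58 members 9 were called higher and 11 lower in TetR-MYBTA against TetR, 14 higher and 10 lower in TetR-MYBTA against WT, and 8 higher and 5 lower in TetR against WT. The shares over all constant regions were 13.4% higher and 12.4% lower for TetR-MYBTA against TetR, and 13.7% and 14.1% against WT. For TetR against WT they were 8.51% and 9.24%. Without chromosomes 1, 11, X and Y the counts against WT were 4 higher and 9 lower in TetR-MYBTA, so the balance turned: Zfp281, Tfcp2l1 and Nr5a2, with 10, 3 and 3 members, lie on chromosome 1. The Nr5a2 member, 88.1 kb downstream of this nuclear receptor gene, had 95.5, 95.0 and 95.2 in TetR-MYBTA, 25.5, 26.1 and 62.0 in TetR and 50.1, 58.1 and 60.8 in WT, and all TetR-MYBTA libraries were above the rest. Tfcp2l1, for a factor of naive cells, had a member with 87.5, 90.6 and 89.1 in TetR-MYBTA, 81.2, 71.4 and 73.1 in TetR and 67.8, 60.4 and 36.3 in WT.

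Other naive genes had members with a lower mean place in TetR-MYBTA than in WT. At Esrrb, Sall4 and Tbx3 TetR was called lower than WT as well. The Klf4 member, 62.7 kb downstream of this reprogramming factor gene, had 80.4, 81.1 and 81.3 in TetR-MYBTA, 88.7, 84.5 and 87.99 in TetR and 92.5, 91.7 and 91.2 in WT. It fell by 10.9 in TetR-MYBTA against WT (SE 1.9, adjusted p = 0.0014), and the lines do not overlap. The single Esrrb member, 35.5 kb downstream of this orphan receptor gene, had 27.1, 6.86 and 9.68 in TetR-MYBTA and 7.05, 9.77 and 8.18 in TetR, against 45.8, 56.1 and 49.96 in WT. Near Sall4, a zinc finger factor gene, the member had 20.8, 51.1 and 24.6 in TetR-MYBTA and 25.4, 16.6 and 31.3 in TetR, against 69.8, 80.6 and 64.9 in WT. Both construct lines were below WT at Esrrb and Sall4, with both comparisons called. Near Mycn, a MYC family gene with 6 members, the highest, 1.71 kb upstream, had 75.9, 73.7 and 62.3 in TetR-MYBTA, 75.7, 87.4 and 89.4 in TetR and 91.2, 94.9 and 90.9 in WT. Tbx3 had a member at 62.0, 60.2 and 56.7 in TetR-MYBTA and 49.2, 56.0 and 62.8 in TetR, against 77.9, 82.2 and 82.8 in WT, again with both construct lines lower. Near Utf1, a chromatin factor of stem cells, TetR-MYBTA was alone, with 29.3, 28.2 and 28.1 against 58.0, 64.0 and 59.8 in TetR and 54.0, 46.1 and 43.9 in WT, and only the fall by 32.0 against TetR was called (adjusted p = 0.0055).

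**Figure D4:**
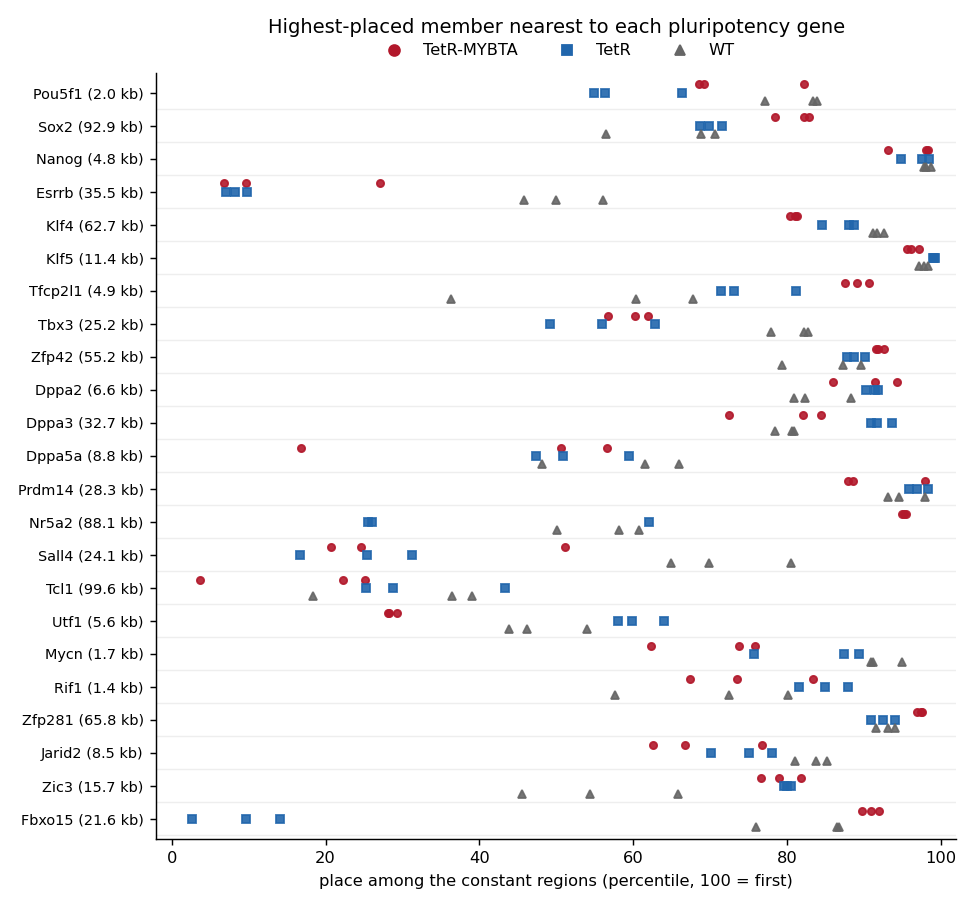
Place of the highest-placed member nearest to each core (first 3 rows) or naive pluripotency gene that has a member, with its distance; each point is 1 library. The Nanog member lies above 93 in all 9 libraries, and the Esrrb, Sall4 and Tbx3 members are higher in WT than in both construct lines.

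Genes of the signalling pathways that act on stem cells (LIF, FGF, BMP, Nodal and WNT) had 34 members near 18 of 28 genes. More were called lower than higher in TetR-MYBTA: 3 higher and 10 lower against TetR, and 2 higher and 7 lower against WT. Over all constant regions 13.4% were called higher and 12.4% lower against TetR, and 13.7% and 14.1% against WT. TetR against WT gave 2 higher and 7 lower, where 8.51% and 9.24% of all constant regions were called, and 1 higher and 1 lower with the place in the whole list. The median differences were -7.05 for TetR-MYBTA against TetR and -11.5 against WT, where all members had 0.516 and 1.91. In the BMP pathway, the member 28.7 kb upstream of Id2, a BMP target that blocks differentiation factors, had 28.9, 20.3 and 40.5 in TetR-MYBTA, 77.9, 69.8 and 77.7 in TetR and 52.7, 49.9 and 58.8 in WT, so that each line had its own range. The member 1.28 kb upstream of Bmp4, the ligand, had 70.7, 80.0 and 71.2 in TetR-MYBTA, 87.3, 88.8 and 94.8 in TetR and 82.6, 83.0 and 85.9 in WT. It fell by 16.3 in TetR-MYBTA against TetR (SE 3.1, adjusted p = 0.0015) and fell by 9.87 against WT (adjusted p = 0.028), a call lost under 9 of 18 alternatives, with adjusted p up to 0.0922. Near Id1 the member had 69.1, 49.7 and 58.3 in TetR-MYBTA and 76.8, 64.1 and 64.7 in TetR, against 91.9, 88.8 and 91.0 in WT. The means near Id1 and Id2 were thus lowest in TetR-MYBTA, whereas the member near Id3, another BMP target, had a mean place of 62.6 in TetR-MYBTA libraries, below the WT mean of 77.9 but above the TetR mean of 59.7, and was called in no comparison. The member 6.34 kb from Smad7, for an inhibitor of the pathway, fell by 35.8 in TetR-MYBTA against TetR (SE 7.0, adjusted p = 0.002). TetR was the line that stood apart there, with 86.6, 85.5 and 84.8 against 52.4, 49.7 and 64.3 in WT and 40.1, 48.5 and 60.8 in TetR-MYBTA. TetR rose by 30.2 against WT (limma adjusted p = 0.0101), and TetR-MYBTA against WT was not called.

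Of the other pathways, Nodal, a ligand of the TGF-beta family, had a member 1.94 kb upstream with 61.7, 69.3 and 60.2 in TetR-MYBTA, 68.5, 72.7 and 74.0 in TetR and 83.1, 90.02 and 82.3 in WT. It fell by 21.4 in TetR-MYBTA (SE 4.4, adjusted p = 0.0035) and by 13.4 in TetR (adjusted p = 0.049) against WT, and the call in TetR was lost under 10 of 18 alternatives, with adjusted p up to 0.221. The list also held the symbol Tcf3, which on chromosome 10 is the gene for E2A and not the WNT effector Tcf7l1. Its member had 13.4, 27.9 and 0.246 in TetR-MYBTA and 18.3, 31.9 and 8.32 in TetR, against 57.1, 41.9 and 63.8 in WT, so both construct lines were below. This member is 1 of the 7 counted above as called lower against WT in each construct line. In the LIF pathway, the member 1.41 kb upstream of Il6st, the shared receptor gp130, had 67.0, 80.0 and 63.3 in TetR-MYBTA, 85.1, 87.6 and 86.3 in TetR and 89.9, 87.8 and 72.0 in WT, and fell by 16.2 against TetR (adjusted p = 0.022), a call lost under 6 of 18 alternatives, with adjusted p up to 0.0869. For the FGF feedback inhibitors, Dusp6 had 3 of 4 members called lower in TetR-MYBTA against TetR, while Spry2 had 2 called higher and 1 lower. The members near Lifr, Lefty1, Lefty2, Axin2, Ctnnb1, Smad3 and Id3 were called in no comparison.

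**Figure D5:**
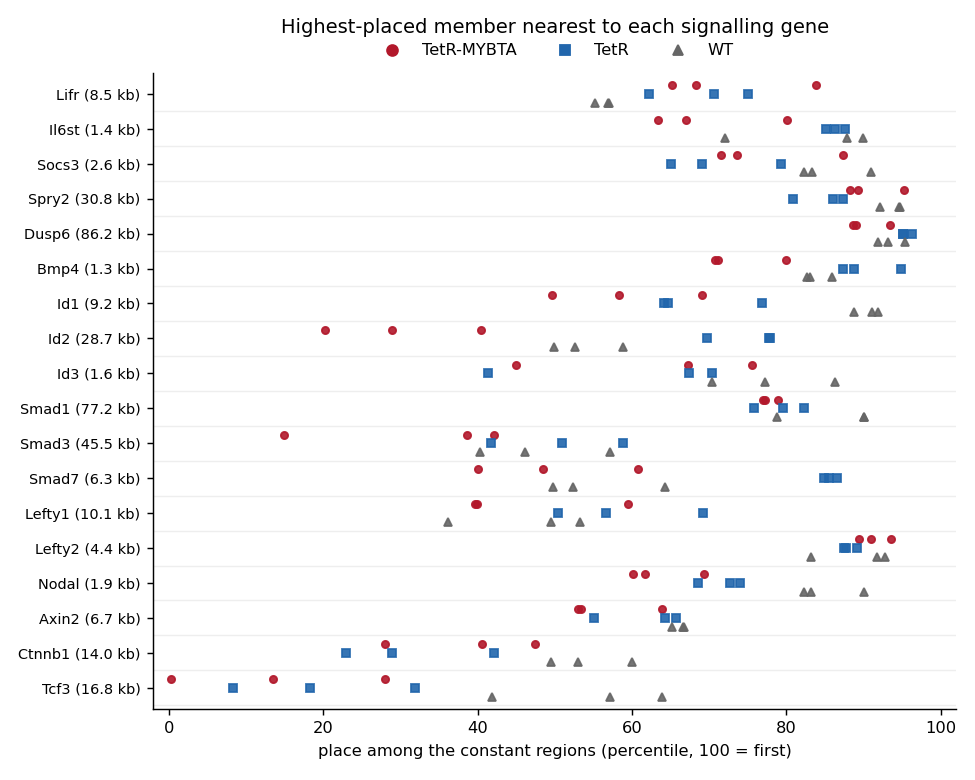
Place of the highest-placed member nearest to each signalling gene that has a member, with its distance; each point is 1 library. The Id1, Nodal and Tcf3 (E2A) members are higher in WT than in both construct lines, and the Id2 and Bmp4 members are lowest in TetR-MYBTA.

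Lists of lineage and other genes had 3 to 19 members each. Their counts stand beside shares over all constant regions of 13.4% higher and 12.4% lower for TetR-MYBTA against TetR, and 13.7% and 14.1% against WT. Formative and primed genes had 19 members near 8 of 15 genes, with 1 called higher and 6 lower in TetR-MYBTA against TetR and 2 higher and 4 lower against WT. Trophoblast genes had 13 members near 10 of 14 genes, with none higher and 4 lower in either comparison; against TetR only 2 were called lower with the place in the whole list, and 2 without chromosomes 1, 11, X and Y. Blood progenitor genes, the cells where MYB acts, had 13 members near 8 of 17 genes, with 2 higher and 2 lower in TetR-MYBTA against TetR and 5 higher and 4 lower against WT. Of these 5, 2 were near Cd34 and 2 near Ptprc, both on chromosome 1, and 1 near Meis1 on chromosome 11. Genes of mesoderm and endoderm had 10 members near 7 of 19 genes (1 higher and 3 lower against TetR, 1 and 1 against WT), neural genes 11 near 8 of 15 (1 and 3, then 1 and 2), and DNA methylation genes 8 near 3 of 9 (none against TetR, 1 and 1 against WT). The MYB family and its coactivators had 3 members near 3 of 12 genes (Mybl1, Lin54 and Taf12), none called in either TetR-MYBTA comparison. Housekeeping genes had 5 near 5 of 15, with none higher and 1 lower against TetR and 1 and 1 against WT.

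Some genes collected many members. Zfp281, a zinc finger factor of stem cells, was nearest to 10, at 11.5 to 97.7 kb, of which 5 were called higher in TetR-MYBTA against TetR, 6 against WT and none lower. Reep3 had 9, and Gja1 (connexin 43), Gm10654 and Tle4 (a corepressor) had 8 each. Those with 7 were Eea1, Gli2, Mtcl1, Myc, Nudt4, Pcmtd1, Rasd2, S1pr1 and Sec61g. At Gli2 on chromosome 1, a hedgehog pathway factor, 6 of 7 were called higher in TetR-MYBTA against both lines, and at Sec61g on chromosome 11 4 against TetR and 7 against WT. Myc, by contrast, had none called between TetR-MYBTA and TetR, and 1 higher and 1 lower against WT. For comparison, 13.4% of all constant regions were called higher and 12.4% lower in TetR-MYBTA against TetR, and 13.7% and 14.1% against WT. On chromosome 11, 41.2% of all members were called higher in TetR-MYBTA against TetR and 35.4% against WT. Genes nearest to exactly 1 member numbered 2949, and 229 had 4 or more. Joined where neighbours lay within the gap commonly used to define super-enhancers, 2090 members (30.1%) fell into 925 clusters of 2 or more, and 14 clusters had 5 or more. The largest had 6 members each, near Zfp281 over 33.0 kb with mean places of 51.5 to 94.2, near Tle4 over 29.2 kb with 19.1 to 58.6, and near Oscar over 36.5 kb with 13.3 to 47.8. In the Zfp281 cluster 5 of 6 members were called higher in TetR-MYBTA against WT, and in that near Trio 4 of 5 were called higher in TetR against WT. The fifth of the large clusters, near Pigm and Slamf9, had 3 of 5 called higher in TetR-MYBTA against TetR. The clusters near Zfp281 and near Pigm and Slamf9 lie on chromosome 1 beyond 88 Mb. There 38.1% of all members were called higher in TetR-MYBTA against TetR and 41.2% against WT. In TetR against WT, 8.51% of all constant regions were called higher and 9.24% lower.

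The centres of the 9 peaks spanned a median of 64 bp in members, against 77 bp at gene ends, 65.5 bp inside genes and 58 bp in gene deserts. In 35.4% of members they lay within 50 bp, and in 7.31% they spread over more than 200 bp. The median distance of a library's peak centre from the median centre was 11.3 ± 0.577 bp in TetR-MYBTA, 10 ± 0.5 bp in TetR and 11.2 ± 0.289 bp in WT (SD, n = 3 each). TetR-MYBTA differed from the other 6 libraries by 0.750 bp (two-sided exact permutation p = 0.25). TetR stood apart, at 9.5 to 10.5 bp, while TetR-MYBTA at 11 to 12 bp and WT at 11 to 11.5 bp overlapped. The difference was 1.33 bp for TetR-MYBTA minus TetR and -1.17 bp for TetR minus WT, with exact permutation p = 0.1 in both, the smallest that 3 against 3 libraries allow.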

How the data were processed

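ATAC-seq libraries of 3 lines of mouse E14 cells, 3 libraries each, were grouped by their titles. Per the labels' protocols, cells were lysed mildly and DNA was cut and tagged with Nextera Tn5. HOMER 4.11, Bowtie2, Picard, Trim Galore 0.6.10, deepTools 3.5.5, FastQC and mm10 are named in the submitters' processing notes. Per the file headers, HOMER called peaks in each library alone, without a control library, with a 4-fold excess over 10 kb, a local p of 0.0001, a false discovery rate of 0.001 and at most 1 tag per position. The score in the deposited lists is 1 in every row and each list has 1 width apart from 1 peak, so row order was read as the ranking. Not given in the sources used here are what the lists were sorted on, any shift of reads for Tn5 and any removal of blacklisted regions. No tag counts per peak were used, so no counting interval is given.

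Peaks overlapping by at least 1 bp were merged, coordinates were counted from 1, and regions were placed against 21900 protein-coding genes of RefSeq (GRCm38.p6), which pairs genes with positions but not exons or UTRs. Where a region had several peaks in a library (14 members), the best-placed one was used. limma 3.58.1 (moderated, with a variance trend) was fitted to the places of all 26020 constant regions in all 9 libraries, with Benjamini-Hochberg adjustment. A place is bounded, and every member had to pass the calling limit in every library, which narrows the differences that can be seen. For library measures the two-sided exact permutation test was used. A check with simulated shifts in a small part of the regions found no call in a wrong direction. Such calls were unlikely for shifts of the size used, so this gives no measure of false calls. Same-numbered libraries of different lines did not deviate together (correlations of -0.018 to 0.030), so the replicate number was not used.

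Members, gene lists and the stretches of chromosomes 1, 6 and 11 were chosen with earlier results of these data known. Named members were the 10 with the highest mean place, the 6 largest non-overlapping called differences per pair of lines and direction, the highest member near each core, naive or signalling gene, the genes with most members (8 with ties), the 5 largest clusters, the 10 highest at a lncRNA gene and those at the limits of distance. One of the members so chosen is not reported here. The lncRNA and microRNA sequences shown, and other genes named with counts, were chosen after their values were seen. The other tools were R 4.3.3, Python 3.11.15, pandas 2.3.3, numpy 2.4.6, matplotlib 3.10.9 and scipy 1.17.1.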

Additional observations from a re-analysis of the deposited data

How the results depend on the processing

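The counts of members called between TetR-MYBTA and TetR (1971) and between TetR-MYBTA and WT (1909) stayed within 1.5 times of these values under the 18 alternatives: normal scores, the place in the whole list, no variance trend, the replicate block, each library left out (1476 to 1899 and 1366 to 1823), chromosomes left out, more than 2.5 kb from genes, lists of equal length and 1 peak in every library. The count between TetR and WT (1228) was 574 with the place in the whole list and 757 to 1321 with 1 library left out. The place in the whole list also turned the median place of members to -1.97 for TetR-MYBTA minus the other 6 libraries, to -3.10 minus TetR and to -0.846 minus WT, and left gene-near minus gene end at 3.18 (exact p = 0.0833) instead of 8.06. The cause was not tested. The replicate block, with 3 pairs and a smallest exact p of 0.25, gave p = 0.25 for TetR-MYBTA minus the other 6 libraries in the median place (3.44), far minus close (6.50), gene-near minus gene end (8.06) and gene-near minus gene desert (-11.1), with calls of 1901, 1834 and 1161. Leaving out 1 library moved the centre displacement of TetR-MYBTA minus WT between -0.167 and 0.333 bp. The number of members was 5400 to 7737 under its alternatives. Of 114 calls of named members, 78 held under every alternative that gave a value, 36 did not under at least 1, and none changed sign. Among those lost at least once were Pou5f1 (TetR against WT), Nodal, Tcf3, Id1, Tbx3, Dppa2, Dppa3, Sall4, Tfcp2l1, Socs3 and Spry2 (also TetR against WT), Sox2, Zfp42, Dppa2, Tbx3, Jarid2, Bmp4, Id2 and Platr22 (TetR-MYBTA against WT), and Klf4, Klf5, Mycn, Il6st, Spry2, Dusp6, Lmtk2, Vps4b and Platr22 (TetR-MYBTA against TetR). Both calls against WT at Panct2, in TetR-MYBTA and in TetR, were also lost at least once. The alternative without chromosomes 1, 11, X and Y, and those of the measures beside median place, were chosen after seeing the data. Row order gives no size of signal, so weak and strong changes in accessibility cannot be told apart beyond rank.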

Other observations

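Genes such as Rasd2 and Reep3, outside the lists, also collected highly placed members. The 7 members nearest to Rasd2, a small GTPase gene, had mean places of 60.3 to 95.7, and the 9 nearest to Reep3 had 55.3 to 84.1. Of the Rasd2 members 2 were called higher in TetR-MYBTA against TetR and 2 against WT, and of the Reep3 members 1 and 1. The shares called higher over all constant regions were 13.4% and 13.7%. Neighbouring members lay a median of 111 kb apart.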
